A study of Homo sapiens with 2 samples.

Results

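The MYC locus was described from the list of H3K18la peaks in H1299, an established cell line from a human lung cancer of the non-small cell type. H3K18la is histone H3 lactylated at lysine 18, and it was mapped by chromatin immunoprecipitation and sequencing (ChIP-seq) with an anti-H3K18la antibody. The members were 3 genes, MYC, PVT1 and CASC11, and the peaks on chromosome 8 between 126.7 and 129.3 Mb (hg38), a rule that uses position and no measured value. This interval held 38 of the 28695 peaks in the list. The series has 2 libraries from that line, 1 anti-H3K18la and 1 input, and the peak list of the former was analysed. The series' design text speaks of an IgG group in place of the input, and which control entered the peak calls is not given in the sources used here. The list is tied to the anti-H3K18la library by its labels only, since its peaks carry names starting with NC that no label accounts for. With 1 library there was no replicate error, no test was possible, and the values below describe this list. The sequencing depth is unknown, and the lack of a listed peak at a gene does not show that the mark is absent there.

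MYC encodes a basic helix-loop-helix transcription factor that pairs with MAX and drives genes of growth, ribosome assembly and metabolism. It is flanked by long noncoding RNA genes, CASC11 on the side of lower coordinates and PVT1 on the side of higher coordinates. PVT1 is often gained together with MYC in tumours, its promoter can compete with that of MYC for enhancers, and enhancers of MYC lie inside and beyond PVT1 at positions that differ between tissues. MYC and PVT1 are transcribed towards higher coordinates and CASC11 towards lower ones, as background, since the gene table used here gives no strand, exons or introns. H3K18la is found at active promoters and enhancers.

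MYC (NCBI gene 4609, 127735434 to 127742951) was covered by H3K18la over nearly its whole length, at a moderate fold. The fold of a peak is the deposited fold enrichment over the local background of the peak caller, averaged over the peak. The first MYC peak (127734325 to 127740936) was 6612 bp wide and had 4.72-fold and a -log10 q of 13.8. It began 1109 bp below the gene and ended 2015 bp before the gene's upper end. The second peak (127741460 to 127744011, 2552 bp) followed after a gap of 523 bp and ran 1060 bp past the upper end, at 3.13-fold and a -log10 q of 4.59. Together they covered 93.0% of the gene. Among 2466 protein-coding genes of 5000 to 10000 bp, the median covered share was 4.65% and 6 genes had a higher share than MYC.

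The peak at the lower end of MYC was thus wide and not strong. A peak within 1000 bp of an end was found for 59.1% of 19862 protein-coding genes. Of the 11741 genes with such a peak, 1.20% had a wider one than MYC and 68.9% had one of higher fold, where the peak of highest fold was taken for each gene. Over those genes the median width was 1421 bp and the median fold 5.66.

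CASC11 (NCBI gene 100270680, 127700608 to 127733967), a long noncoding RNA gene, overlapped no peak. The first MYC peak began 357 bp above its upper end, in the 1466 bp that separate the 2 genes, and on the other side the nearest peak lay 405.4 kb away. An entry without a peak is common among such genes. Of 18010 lncRNA entries 25.0% overlapped one, and of the 3042 entries of 20000 to 50000 bp, the length range of CASC11, 27.0% did. By the rule used above for protein-coding genes, a peak within 1000 bp of an end, CASC11 would count the first MYC peak.

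Between MYC and PVT1, which lie 51.6 kb apart, 1 further peak was listed (127759583 to 127761394). It was 1812 bp wide, had 4.0-fold and a -log10 q of 9.68, and overlapped no gene entry. It began 16.6 kb above MYC.

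**Figure D1:**
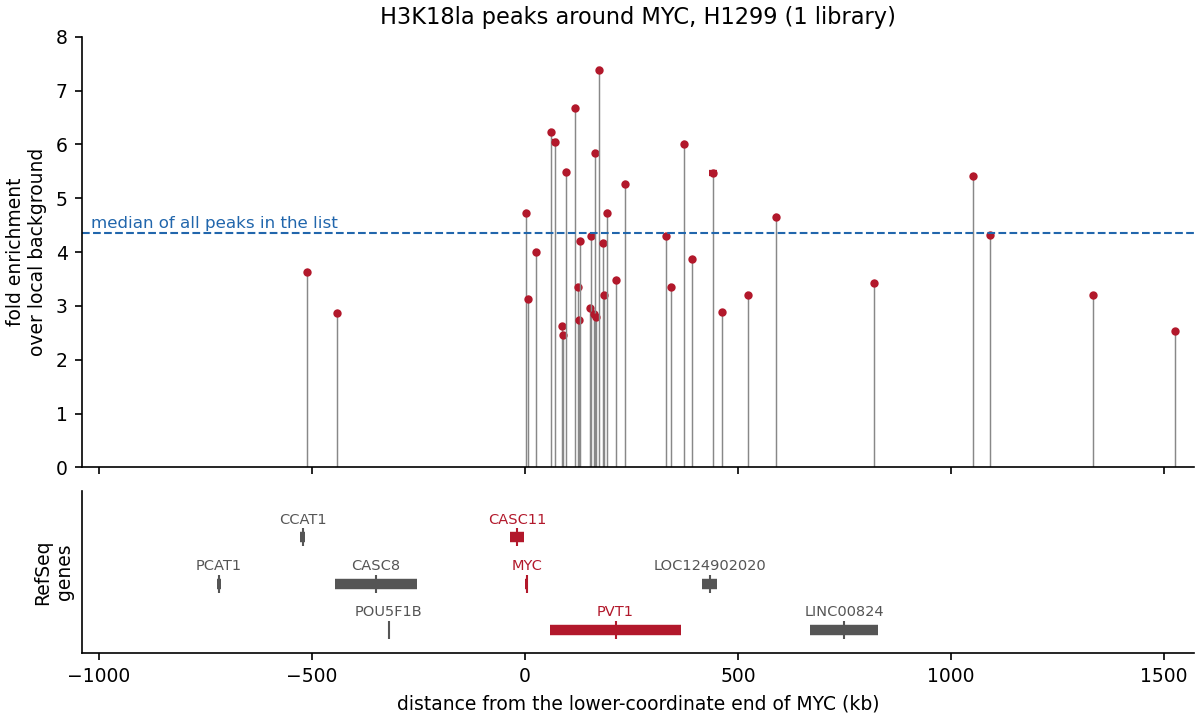
Upper panel: each of the 38 peaks as a point at its centre and a bar as long as the peak, by distance from the lower-coordinate end of MYC (kb) and fold enrichment; the dashed line is the median of all peaks in the list (4.36). Lower panel: selected RefSeq genes on the same axis, the 3 members in red. Peaks are densest in the part of PVT1 nearer to MYC, a stretch of 92.9 kb inside PVT1 has none, and 2 peaks lie on the side below MYC.

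PVT1 (NCBI gene 5820, 127794524 to 128101256, 306.7 kb) overlapped 22 of the 38 peaks. They covered 24.4% of the gene, at 7.17 peaks per 100 kb. Their widths ran from 392 to 13889 bp (median 2044) and their folds from 2.46 to 7.39 (median 4.19). Of the 22, 8 lay above the list median of 4.36-fold, which 50.0% of all peaks do.

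The end of PVT1 nearer to MYC, where its transcription starts, carried strong and wide peaks. The first peak (127793948 to 127797396, 3449 bp) began 576 bp below the gene and reached 2872 bp into it, with 6.23-fold and a -log10 q of 26.3. It contained the whole entry of MIR1204, the first of the microRNA genes hosted by PVT1. The second (127799063 to 127812951) was the widest in PVT1 with 13889 bp, ranking 22nd by width in the whole list, and had 6.05-fold. Its -log10 q was 26.5.

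The peak of highest fold lay 110.04 kb into the gene (127904568 to 127913980). It was 9413 bp wide, had 7.39-fold and had the highest -log10 q of the gene's peaks, 30.1. Of all peaks in the list, 11.3% had a higher fold. The next by fold was the peak at 127850531 to 127856692, 56.01 kb into the gene, with 6162 bp and 6.67-fold.

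Below these came 127898353 to 127900349 with 5.83-fold over 1997 bp, a narrow peak among the strong ones. The peak at 127830235 to 127833970 had 5.49-fold over 3736 bp, and the one at 127966655 to 127972344 had 5.26-fold over 5690 bp. These and the 4 peaks described before them made up the 7 peaks of at least 5-fold in PVT1. The remaining wide peak, at 127925108 to 127932690 (7583 bp), had 4.72-fold, as MYC did.

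Strong and weak peaks of PVT1 differed in width. The 5 peaks of 5000 bp or more had 4.72-fold to 7.39-fold and made up 56.6% of the summed width of 75474 bp. The 7 peaks under 1000 bp had 2.46-fold to 4.30-fold. Such a difference was not particular to PVT1. Over the whole list the median fold was 6.73 for peaks of 5000 bp or more and 3.53 for those under 1000 bp. Peaks of 5000 bp or more are 22.7% of those in PVT1 and 2.42% of all peaks. The weakest, at 127823502 to 127823893, had a -log10 q of 1.44, close to the lowest in the list (1.33), and 12 of the 22 peaks had a -log10 q of at least 5, against 63.3% of all peaks.

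The peaks of middle rank lay near the strong ones and had folds close to the list median. They were 127863805 to 127867556 (3752 bp, 4.20-fold), 127888040 to 127892149 (4110 bp, 4.29-fold) and 127915488 to 127920301 (4814 bp, 4.18-fold). Lower values were those of 127858501 to 127860591 (2091 bp, 3.36-fold) and 127949301 to 127950812 (1512 bp, 3.48-fold). The last of these lies just above LINC02912, and the others belong to clusters of peaks. The remaining peaks, also in such clusters, were short. Those at 127822357 (475 bp, 2.63-fold), 127861998 (601 bp, 2.74-fold), 127886890 (578 bp, 2.95-fold), 127896658 (612 bp, 2.86-fold), 127900924 (1059 bp, 2.79-fold) and 127920950 (736 bp, 3.20-fold), each named by its start, all had a -log10 q under 5.

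The mark was uneven along PVT1. From its lower end to its midpoint the gene held 18 of the 22 peaks and was covered to 42.3%, and from the midpoint on it held 4 and was covered to 6.54%. When the gene was divided into 10 segments of equal length, segment 1 was covered to 57.5% and segment 4 to 63.6%, the 2 highest values. Segments 7 and 8 held no peak. They lie in a stretch of 92.9 kb without one (127972345 to 128065212), which contains MIR1206 and MIR1207. MIR1205 lay 5.96 kb from the nearest peak and the noncoding gene LINC02912, which lies inside PVT1, 0.578 kb from one. The last 2 peaks of PVT1 were 128065213 to 128066050 (838 bp, 4.30-fold) and 128076403 to 128078387 (1985 bp, 3.35-fold). The end of PVT1 at the higher coordinate had no peak on it.

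**Figure D2:**
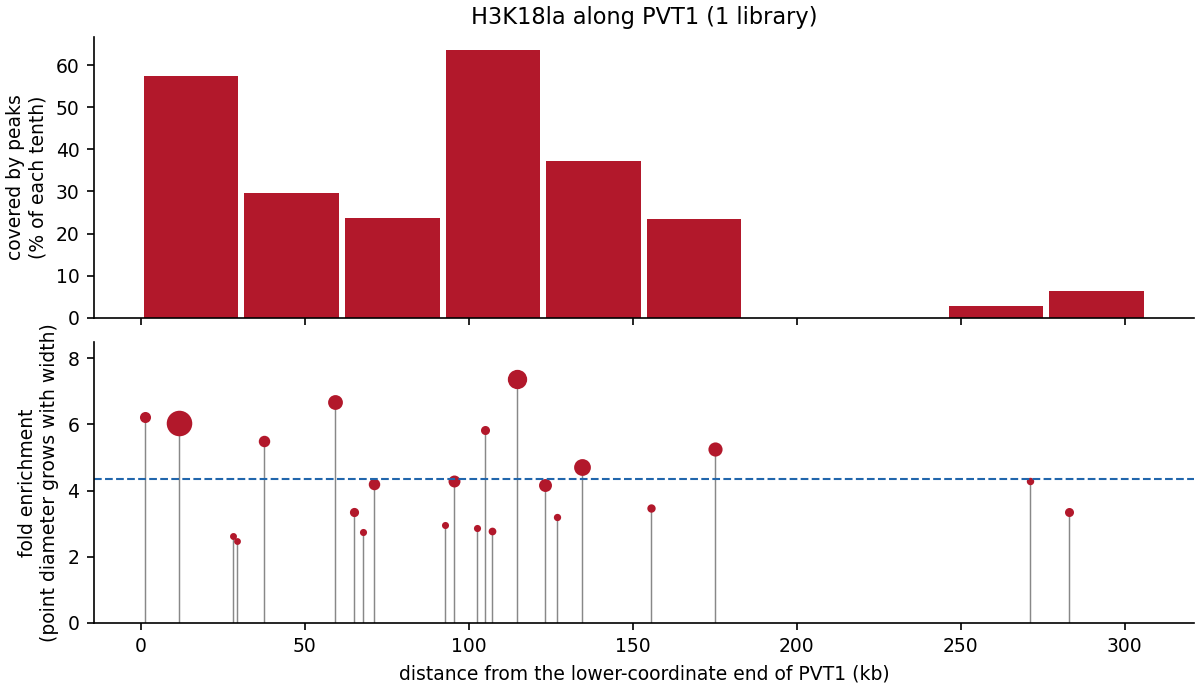
Upper panel: share of each of 10 equal segments of PVT1 covered by peaks (%), from the end nearer to MYC. Lower panel: fold of the 22 peaks at their centres on the same axis (kb from the lower-coordinate end), point diameter growing with width; the dashed line is the list median of 4.36. The first 6 segments hold 96.2% of the covered bases, and segments 7 and 8 hold none.

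When peaks were joined across gaps of up to 10000 bp, 3 clusters of 4 or more peaks appeared in the interval, all overlapping PVT1. Over the genome, 3.64% of 20256 clusters had 4 peaks or more. The first cluster (127793948 to 127833970) had 5 peaks and the second (127850531 to 127867556) had 4. The third (127886890 to 127932690) had 9 peaks that covered 30902 bp, which ranked 14th of all clusters by bases covered. With gaps of up to 20000 bp the 3 joined, with 2 single peaks, into 1 cluster of 20 peaks from 127793948 to 127972344. It covered 72651 bp and ranked 2nd of 16363 clusters by bases covered and 4th by number of peaks.

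Beyond PVT1 the mark went on for over 200 kb at wider spacing. The next peak after the gene (128107179 to 128110968) lay 5.92 kb past its end, with 3790 bp and 6.01-fold, the highest fold of the interval outside PVT1. It was followed by 128126307 to 128130620 (4314 bp, 3.87-fold). The widest peak of the interval came next, at 128167010 to 128186802. It measured 19793 bp, the 7th widest of the whole list, with 5.47-fold and a -log10 q of 19.1. It lay 431.6 kb above the start of MYC and covered 55.1% of LOC124902020, an uncharacterised lncRNA entry. MIR1208 lay 16.8 kb below it. Then came 128196948 to 128197665 (718 bp, 2.88-fold) and 128257324 to 128259426 (2103 bp, 3.20-fold), both weaker than the list median. The last larger peak, 128322521 to 128327287 (4767 bp), had 4.65-fold.

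From the first MYC peak to that last one, 31 of the 38 peaks lay within 593.0 kb, with no gap over 200 kb between them, a bound set after the positions were seen. This stretch is 22.8% of the interval's length and held 91.9% of its covered bases. The remaining peaks were 2 below MYC and 5 above the stretch.

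The side below MYC carries noncoding genes named for their links to prostate and colon cancer, and it was nearly free of peaks. The first peak of the interval (127222474 to 127226314, 3841 bp, 3.64-fold) lay 3.21 kb above CCAT1. The second (127294482 to 127295257, 776 bp, 2.88-fold) lay in CASC21 and CASC8, which overlap each other. Neither reached a -log10 q of 5. No peak overlapped PCAT1, PCAT2, PRNCR1, CASC19, CCAT1 or CCAT2. POU5F1B, a retrogene of the pluripotency factor gene POU5F1 and the only other protein-coding gene of the interval, lay 118.2 kb from the nearest peak. The 2 longest stretches without a peak were on this side, 522.5 kb from the interval's border and 439.1 kb from inside CASC8 to the first MYC peak.

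The far side above PVT1 was sparse as well. The peak in LINC00824 (128554383 to 128556804, 2422 bp) had 3.43-fold. A stronger one, 128786760 to 128789390 (2631 bp, 5.42-fold), overlapped no gene entry and lay 1051.3 kb above the start of MYC. Near it lay a peak of 377 bp and 4.32-fold (128827011 to 128827387). The last peaks were those at 129069306 to 129069605, the narrowest of the interval with 300 bp and 3.21-fold, and in LOC124902024 at 129260352 to 129260769 (418 bp, 2.54-fold). The next longest stretches without a peak, of 241.9, 230.0 and 227.1 kb, were on this side. Just outside the interval, the nearest peaks had 2.75-fold (397 bp, 126579193 to 126579589, in LOC105375751) and 3.28-fold (983 bp, 129445339 to 129446321).

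Of the 34 gene entries that overlap the interval, 9 overlapped a peak (26.5%), against 31.0% of all entries. One of the 9, LOC105375751, did so only through a peak outside the interval. Among the 22 lncRNA entries, 7 overlapped a peak (31.8%, against 25.0%), and among the 5 microRNA entries 1 did, MIR1204 (8.78% of all microRNA entries). The shares of entries with a peak were near those of the genome.

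Compared with other stretches of its size, the interval stood high by covered share and less high, though above the median, by number of peaks. Chromosomes 1 to 22 and X were divided into 1154 windows of 2.6 Mb. The interval was covered to 5.10%, more than 96.9% of the windows, whose median was 1.11%. Its 38 peaks exceeded the number in 78.8% of windows, whose median was 20. On chromosome 8, 1 of 55 windows was covered to a higher share (6.47%), and that window, 127400001 to 130000000, itself contains MYC and PVT1. The windows are not replicates, and those with no assembled sequence were not removed.

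**Figure D3:**
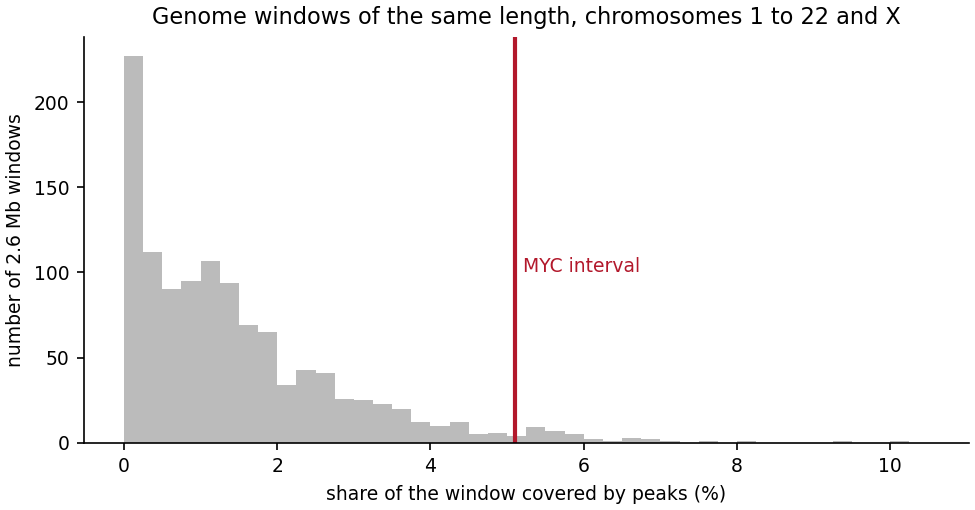
Number of windows of 2.6 Mb (y) by the share of each covered by peaks in percent (x); the red line is the interval around MYC. The interval, at 5.10%, lies above 96.9% of the 1154 windows.

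The peaks of the interval were wide and of modest fold. Their median width was 2263 bp, against 1250 bp in the whole list and 1270 bp on the rest of chromosome 8. Peaks of 5000 bp or more numbered 7 of 38 (18.4%), against 2.42% of all peaks. The median fold was 3.93, below the 4.36 of all peaks and close to the 3.91 of the rest of chromosome 8. Over all chromosome 8 peaks above 45 Mb, those of the interval included, the median fold was 3.74, and below 45 Mb it was 4.34. Above the list median lay 13 of 38 (34.2%). When each peak was weighted by its width, the median fold was 5.26 in the interval and 5.49 in PVT1, against 5.19 in the whole list, so the order depended on the weighting.

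Among long noncoding genes PVT1 stood near the top. Of 986 noncoding RNA genes of 100000 bp or more, 47.0% overlapped a peak, and 5% of them were covered to more than 4.18%. PVT1, at 24.4%, was second to ERRFI1-DT (28.5% of 100.6 kb, 9 peaks), a gene beside the EGFR feedback inhibitor gene ERRFI1. LINC-PINT, a p53-induced noncoding RNA gene, was close behind with 23.9% of 232.4 kb in 16 peaks. Next came LOC105375508 (13.8%) and CDKN2B-AS1 (13.6%, 10 peaks), which runs through the CDKN2A and CDKN2B tumour suppressor locus. PVT1 was first by number of peaks, with 22 against 16 for the next, and first by bases covered, with 74.9 kb against 55.4 kb for LINC-PINT.

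Protein-coding genes of that length reached similar values. Among all 4336 genes of 100000 bp or more PVT1 was 6th by covered share, and 3 had more peaks. SMAD3, a signal transducer of TGF-beta, led with 41.0% and 17 peaks. EXT1, a heparan sulfate polymerase gene on the same arm of chromosome 8, had 27 peaks over 317337 bp and 23.2% covered. These 2 genes were chosen after their values were seen.

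**Figure D4:**
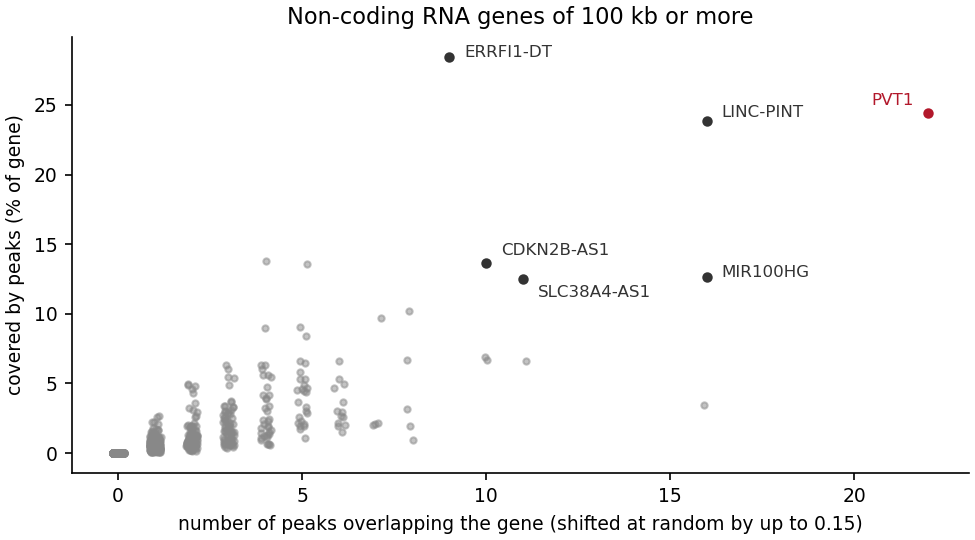
Each point is 1 of 986 noncoding RNA genes of 100 kb or more, by number of overlapping peaks (x, unnamed points shifted at random by up to 0.15) and share of the gene covered in percent (y). PVT1 has the most peaks, 22, and the second highest covered share, 24.4%.

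The local background derived from the peaks was higher around MYC than in most of the genome. No control library was analysed here: the background of each peak was solved from its fold and -log10 p under the caller's Poisson model, in the scaled reads of the caller. Its median was 5.08 over the interval, against 3.83 over all peaks and 4.94 on the rest of chromosome 8. Over the 890 chromosome 8 peaks above 45 Mb, those of the interval included, it was 5.88. Over the 403 peaks below 45 Mb it was 3.29. The interval was thus high for the genome and not for its part of the chromosome. In bins of 5 Mb along chromosome 8 the median was 2.93 to 3.66 below 45 Mb and 3.92 to 7.63 above it, so the rise was shared by the long arm. These ranges include bins of few peaks, and the 3.92 came from 110 to 115 Mb with 5 peaks. The bin from 125 to 130 Mb, with 5.16, was higher than 85.5% of the 537 bins that held at least 10 peaks.

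The background also differed within the locus. The 5 peaks from MYC to the second PVT1 peak had 6.49 to 9.05 (median 7.56). The other 20 peaks of PVT1 had 3.53 to 6.82 (median 4.74). The 11 peaks beyond PVT1 had 3.56 to 7.72 (median 6.24), so the background did not fall steadily with distance from MYC. The 2 peaks below MYC had 4.23 and 4.28. Width differed between these groups as well. The narrowest of the 5 peaks near MYC had 1812 bp, while 7 of the other 20 peaks of PVT1 were under 1000 bp. The solved background was higher for wider peaks, and the part of width in these differences was not tested. By width, interval peaks of 5000 bp or more had a median background of 6.82 and a median fold of 5.47, against 4.97 and 6.73 for all peaks of that width. For peaks from 1000 to under 5000 bp these values were 6.24 and 4.0 in the interval and 4.19 and 5.0 overall. For peaks under 1000 bp they were 4.03 and 2.88 in the interval and 3.15 and 3.53 overall. The folds of the interval were thus lower and its background higher within each of these width ranges. From the widest to the narrowest, the ranges held 7, 19 and 12 interval peaks. Fold and background are not separate measurements here, since at equal -log10 p a lower fold gives a higher solved background. At equal fold a higher background gives a higher significance, and its part in the width and number of the peaks was not tested.

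Most genes of 3 lists around MYC had a peak within 1000 bp of an end, as did 59.1% of protein-coding genes. The lists were chosen with earlier results of these data known, and their genes are not independent draws. Their shares and intervals are therefore no test against that 59.1%. Of 13 genes of the MYC family and the MAX network, 12 had a peak at an end (92.3%, exact 95% binomial interval 64.0 to 99.8, counting error only). MGA, a MAX partner that represses genes, had 7.56-fold, MXD3 7.15-fold, MLX 6.95-fold and MXD4 6.59-fold. The 7.15-fold peak lay within 1000 bp of an end of MXD3 without overlapping the gene, and it lay also at RAB24 and PRELID1. The peak that overlapped MXD3 had 5.45-fold. The MLX peak lay also at COASY. MYCL had the lowest value, 2.66-fold over 446 bp, and MYCN had no peak. MYC was 10th of the 12 by fold. Its peak of 6612 bp was wider than those of the others, the next being MNT, a MAX partner and MYC antagonist, with 4270 bp.

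All 18 genes of MYC cofactors and turnover factors had a peak at an end (100%, 81.5 to 100). TRRAP, a scaffold that MYC recruits with acetyltransferases, had 9.90-fold, where the solved background was 10.1. RUVBL1, an ATPase of chromatin complexes, had 8.88-fold in a peak also at EEFSEC, and the kinase gene PIM1 had 8.02-fold. The lowest was the acetyltransferase gene KAT5 with 3.28-fold. FBXW7, whose product marks MYC for degradation, had 3.62-fold, and 13 of the 18 exceeded MYC.

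Of 20 textbook MYC target genes, 18 had a peak at an end (90%, 68.3 to 98.8). The nucleolar chaperone gene NPM1 had 11.2-fold (chromosome 5, 171387043 to 171388600), the cap-binding factor gene EIF4E 9.13-fold, the polyamine enzyme gene ODC1 7.81-fold and the prothymosin gene PTMA 7.77-fold. SRM, the spermidine synthase gene, had the lowest value with 3.89-fold. No peak lay at TERT, the telomerase gene, or at CCND2, a D-type cyclin gene. Of the 18, 16 exceeded the fold of MYC. The median fold was 5.67 in the first list, 5.94 in the second and 6.36 in the third, against 5.66 over all protein-coding genes with such a peak. At a -log10 q of 5 or more the lists had 11 of 13, 16 of 18 and 18 of 20 genes with a peak, against 52.4% of protein-coding genes. When the peak's midpoint had to lie in the window they had 11, 18 and 18, against 54.8%. By that midpoint rule MYC counted only through its second peak, at 3.13-fold. Its 4.72-fold and its places by fold given here hold for the rule of any overlap.

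**Figure D5:**
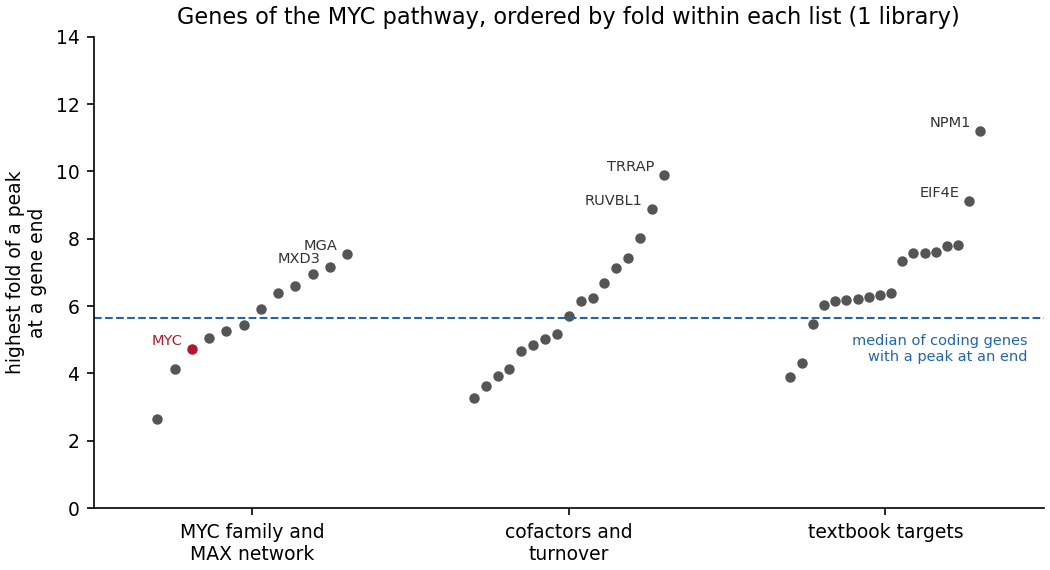
Highest fold of a peak within 1000 bp of a gene end (y) for genes with such a peak in the 3 lists (x), ordered by fold within a list; MYC is in red and the dashed line is the median of protein-coding genes with such a peak (5.66). MYC, at 4.72, lies below most genes of each list. In the second list 1 of the 18 genes is not drawn.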

How the data were processed

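Per the submitters' processing notes, the authors used bcl2fastq 2.17, cutadapt 1.18, Trimmomatic 0.38, Bowtie2 2.3.4.1 (hg38), Picard, MACS2 (2.1.2 and 2.1.0 are both listed) and ChIPseeker. The caller's settings are not given in the sources used here. The deposited broad peak list gives each peak's fold enrichment (a ratio), its significance as -log10 p and -log10 q, and a score, which is a rescaled -log10 q cut to whole numbers (for 99.98% of peaks). The largest q was 0.0472. Library depth is unknown. Fold is an average over the peak.

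Peaks were compared with 58957 RefSeq gene entries (GRCh38.p14). A further 718 on alternate or unlocalised sequences were left out. An overlap of 1 bp counted. Binomial intervals are exact (Clopper-Pearson). The background was solved with the caller's pseudocount of 1. The check of the background named below covers the code that solves it. How accurate the solved background is for broad peaks, whose fold is an average over the peak, was not tested. Python 3.11.15, pandas 2.3.3 and scipy 1.17.1 were used, and overlaps, clusters and the background were checked on simulated data. Members and lists were chosen with earlier results of these data known. Named were MYC, PVT1 and CASC11, other genes of the interval that overlap a peak, its coding genes, peaks first and last by position, the 5 of highest fold and the 5 widest in and outside PVT1, the 5 longest gaps, the long noncoding genes leading or beside PVT1, and, in each of the 3 lists, the 4 genes of highest fold, the lowest and those without a peak; 1 gene of the second list counts in its totals but is not reported here by name or value. Other genes named (such as PCAT1, CCAT1, MIR1205, FBXW7 and MNT) and the remaining peaks were chosen after their values were seen.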

Additional observations from a re-analysis of the deposited data

How the results depend on the processing

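With 1 library, every limit here concerns the list and not biological spread, and the depth that missing peaks depend on is unknown. No paired analysis was possible because each group holds 1 library and the labels give no replicate numbers. With only peaks of a -log10 q of at least 5, PVT1 kept 12 of 22 peaks, MYC 1 of 2 and the interval 22 of 38. The covered share was then 4.39% of the interval and 21.1% of PVT1, the median fold 4.72 in the interval and 5.38 in PVT1 (5.33 over all such peaks), and the background 6.44 (4.35 over all such peaks). With only peaks at or above the median fold of the list, 8 peaks remained in PVT1, 1 at MYC and 13 in the interval. Weighted by bases, the median fold was 5.26 in the interval and 5.49 in PVT1, against 5.19 in the whole list. The interval exceeded 97.8% of windows by covered share when they were shifted by 0.5 of their length, and 75.1% by number of peaks under that limit on q. Gaps of up to 20000 bp gave 14 clusters in place of 22. PVT1 was 1st of 351 noncoding genes of 200000 bp or more and 3rd of 986 under that limit on q. The counts of the 3 pathway lists stayed within 1.5 times of the reported ones. Only a fall could have broken that bound, since nearly all genes of the lists already had a peak.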
